A study of Mus musculus with 9 samples.

Results

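The comparison described here is that of the average of both Mbnl knockouts with wild type in mouse quadriceps, the large extensor muscle of the thigh. All 9 small RNA libraries entered a single fit with 3 groups, and the mean of the Mbnl1 knockout and the Mbnl2 knockout, equally weighted, was set against wild type. Of 1966 mature miRNAs listed in the deposited counts, 310 passed a filter on abundance (normalized count above 10 on average across all 9 libraries) and were tested. A further 599 had a count but did not pass, and 1057 were at 0 throughout. The contrast addressed which miRNAs differ from wild type whichever of the paralogs is lost. Since it is an average, it can be carried by a single knockout, and the changes in each knockout are given for the main examples.

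Each group held 3 libraries from mice of 90 days, and nothing in the labels ties more than 1 library to a mouse. Wild-type mice (WT) were C57BL/6J with intact Mbnl1 and Mbnl2. Mbnl1KO mice were C57BL/6J, homozygous for the ΔE3 allele of Mbnl1, with intact Mbnl2. Mbnl2KO mice had intact Mbnl1 and carried ΔE2/ΔE2, ΔE2/ΔE3 and ΔE2/ΔE4 alleles of Mbnl2 in replicates 1, 2 and 3. Their strain is given as B6.C-Tg(CMV-cre)1Cgn/J, in which a CMV promoter drives Cre in most tissues. No such transgene is named for the other groups, so loss of Mbnl2 and this background cannot be told apart. The study's text calls the WT mice littermates and names a single Mbnl2 genotype (dE2/dE2), which differs from the labels followed here. Small RNA libraries do not measure the Mbnl mRNAs, so the genotypes were not checked through them. The labels do not name litters, cages or days, so the p-values measure the spread between these samples only.

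MBNL1 and MBNL2 are RNA-binding proteins of the muscleblind family, which set the splicing patterns of adult muscle and are trapped by expanded CUG repeats in myotonic dystrophy. A miRNA is cut from a hairpin precursor, whose arms give a 5p and a 3p product. One of these usually guides a silencing complex to mRNAs through its seed, the bases near its 5′ end, while the other is mostly degraded. Skeletal muscle is dominated by a few muscle-specific miRNAs such as miR-1 and miR-133, and miR-206 is known for its rise in regenerating and denervated muscle. Many miRNA genes lie in clusters that share a primary transcript, the longest of them in the imprinted Dlk1-Dio3 region.

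The following mature sequences belong to miRNAs that were higher in every knockout library than in any WT library, with no difference called between the knockouts. Capitals mark the seed (bases 2 to 8), and miR-708-5p and miR-28a-5p are placed first because they have the same seed, AGGAGCU.
miR-708-5p: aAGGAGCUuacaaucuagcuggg
miR-28a-5p: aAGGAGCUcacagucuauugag
miR-182-5p: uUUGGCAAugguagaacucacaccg
miR-503-3p: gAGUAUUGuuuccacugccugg
miR-351-5p: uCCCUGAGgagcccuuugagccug
miR-379-3p: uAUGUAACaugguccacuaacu
miR-494-3p: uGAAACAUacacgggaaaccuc
miR-148a-3p: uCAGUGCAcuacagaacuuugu
miR-10b-5p: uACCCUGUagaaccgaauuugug
miR-5121: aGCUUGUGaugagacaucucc

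The next sequences belong to miRNAs that were lower in every knockout library than in any WT library, again with no difference called between the knockouts. Capitals again mark the seed.
miR-365-2-5p: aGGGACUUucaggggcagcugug
miR-1955-5p: aGUCCCAGgaugcacugcagcuuuu
miR-1a-1-5p: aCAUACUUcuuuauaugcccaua
miR-5113: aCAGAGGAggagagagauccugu
miR-1981-5p: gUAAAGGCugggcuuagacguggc
miR-29b-1-5p: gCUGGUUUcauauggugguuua
miR-100-5p: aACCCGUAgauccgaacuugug
miR-101b-3p: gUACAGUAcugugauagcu
let-7d-3p: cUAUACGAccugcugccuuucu

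The last sequence is that of miR-206-3p, the muscle miRNA with the largest change in the knockout average.
miR-206-3p: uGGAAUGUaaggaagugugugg

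Sequences and positions are those of RefSeq on GRCm38.p6, in which 276 of the 310 tested miRNAs were matched, and 58 of the 63 called ones are held with sequence. Host genes were taken by precursor name from the GENCODE mouse annotation. miR-708-5p lies at chr7:96249450-96249472 on the plus strand, in an intron of Tenm4. miR-28a-5p lies at chr16:24827868-24827889 on the plus strand, in an intron of Lpp. miR-182-5p (chr6:30165962-30165986, minus strand) lies in an intron of the non-coding Mirc35hg. miR-503-3p (chrX:53053987-53054008) and miR-351-5p (chrX:53053315-53053338) overlap exons of the non-coding Mir503hg on the minus strand of the X chromosome. miR-379-3p (chr12:109709102-109709123) and miR-494-3p (chr12:109715367-109715388) lie on the plus strand in the Dlk1-Dio3 region. miR-148a-3p (chr6:51269829-51269850, minus strand) is in an intron of the non-coding Gm38821. miR-10b-5p (chr2:74726074-74726096, plus strand) is in introns of Hoxd3 and Hoxd4, and miR-5121 (chr7:45126925-45126945, minus strand) overlaps an exon of Rpl13a, a ribosomal protein gene.

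Of the falling miRNAs, miR-365-2-5p (chr11:79726428-79726450, plus strand) lies in an intron of the non-coding Gm10387. miR-1955-5p (chr2:92191994-92192018, plus strand) is in an intron of Phf21a. miR-1a-1-5p (chr2:180389057-180389079, plus strand) is in an intron of the non-coding Mir1a-1hg. miR-5113 (chr15:80940049-80940071, plus strand) overlaps an exon of Tnrc6b, which encodes a scaffold of the silencing complex. miR-1981-5p (chr1:184822465-184822488, minus strand) overlaps an exon of Mtarc2. miR-29b-1-5p (chr6:31063067-31063088, minus strand) is in an intron of the non-coding Gm67885, and miR-100-5p (chr9:41531437-41531458, plus strand) in one of Mir100hg. miR-101b-3p (chr19:29135338-29135356, plus strand) is in an intron of Rcl1. let-7d-3p (chr13:48536024-48536045, minus strand) overlaps an exon of the non-coding 6720427I07Rik. miR-206-3p (chr1:20679055-20679076, plus strand) overlaps an exon of the muscle transcript Lincmd1.

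The libraries held between 4761271 and 6277018 counts, and 524 to 602 miRNAs had a count in each. Of these, 61.4% to 73.7% were miR-1a-3p, and the other miRNAs share the rest. Counting error alone does not cover the spread between replicates (chi-square per degree of freedom of 38.8 to 272). In a principal component analysis of the tested miRNAs, Mbnl1KO stood apart from the other 6 libraries on the first axis (49.9% of the variance), and WT from Mbnl2KO on the second (12.9%). Reads without molecular identifiers are not independent molecules. Counts are given below as counts scaled to a common effective library size (normalized counts), and changes as log2 fold changes ± SE with 3 libraries in each group.

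Averaged over both knockouts, 40 miRNAs were higher and 23 were lower than in WT (Benjamini-Hochberg adjusted p under 0.05 in the quasi-likelihood test of edgeR). These 63 make up 20.3% of the tested miRNAs, 12.9% being higher and 7.42% lower. The most significant was miR-206-3p, which rose by 1.45 ± 0.13 (adjusted p = 1.30e-07). The median log2 fold change over all tested miRNAs was 0.01, and the median absolute change of the called ones was 0.75. Changes above 2-fold were found for 16 rising and 4 falling miRNAs. For 28 of the 63 (44.4%), all 6 knockout libraries lay beyond all 3 WT libraries, 17 above and 11 below. Such a separation was seen for 37 of the tested miRNAs (11.9%), so that 9 separated miRNAs were not called. They include miR-195a-5p, at 0.29 ± 0.11 (adjusted p = 0.0682), and miR-181b-5p, at -0.36 ± 0.14 (adjusted p = 0.0682).

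The counts of called miRNAs rest on how the knockouts are entered and how the libraries are scaled. With all 6 knockout libraries as 1 group, so that the difference between the knockouts became part of the spread, edgeR called 0 miRNAs, 65 had an unadjusted p under 0.05 and the lowest adjusted p was 0.0681. DESeq2 with the same grouping, added after seeing the data, called 18. With library totals in place of TMM factors, 44 were higher (88% of the calls) against 63.5% in the main fit, and 6 were lower. Under that scaling the median of all tested miRNAs moved to 0.14. Without WT replicate 2, 42 miRNAs were called, 26 of them higher, and without WT replicate 1, 46 were called.

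**Figure D1:**
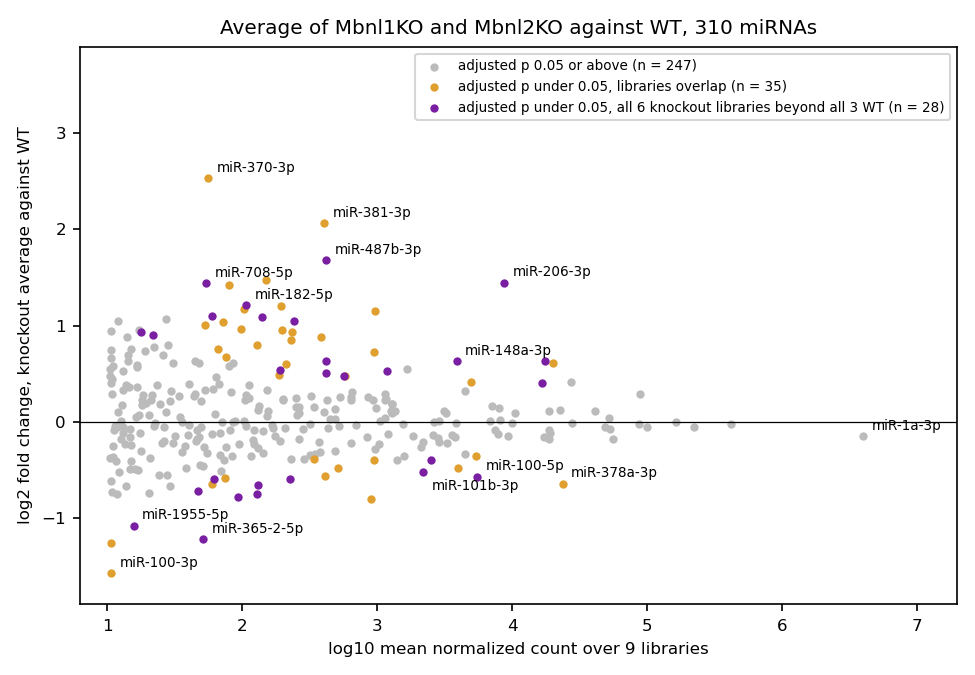
Log2 fold change of the knockout average against WT (vertical axis) by the log10 mean normalized count over 9 libraries (horizontal axis), 1 point for each of 310 tested miRNAs. Colours mark the 247 miRNAs that were not called, the 35 called with overlapping libraries and the 28 called with all 6 knockout libraries beyond all 3 WT libraries. miR-206-3p combines a large change with a high count, while miR-1a-3p, the most abundant, lies near 0.

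To find where both knockouts lay on the same side of WT, the calls were taken in which every knockout library lay beyond every WT library and no difference between Mbnl1KO and Mbnl2KO was called. This left 20 miRNAs, 11 higher and 9 lower, a choice made after the values were seen and given as a description. Taken singly against WT, 4 of the 20 passed the test in both knockouts (miR-101b-3p, miR-708-5p, miR-148a-3p and miR-182-5p), 12 in Mbnl1KO alone, 3 in Mbnl2KO alone and 1 in neither. For the other 16 the average rather than each knockout carries the call. The difference between the knockouts had a 95% interval with a median half-width of 0.43 on the log2 scale over the 20, from 0.26 to 0.81. A difference of that size between the knockouts could thus go uncalled, and equal responses are not shown. For miR-1955-5p, miR-10b-5p, miR-28a-5p, miR-5121 and miR-148a-3p the interval left out 0, although the adjusted p was above 0.05. Of the 20, 9 stayed called whichever library was left out, and 12 were called with library totals.

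The largest increase among the 20 was that of miR-708-5p, a miRNA of the Tenm4 gene that is known from quiescent muscle stem cells. Its normalized counts were 20.4, 34.1 and 20.05 in WT, 85.2, 54.8 and 45.4 in Mbnl1KO and 88.2, 75.95 and 61.3 in Mbnl2KO. All knockout libraries were above the highest WT library, and the change was 1.44 ± 0.27 (adjusted p = 0.000633). Against WT it was 1.3 ± 0.30 in Mbnl1KO and 1.58 ± 0.30 in Mbnl2KO, with a difference of -0.28 (95% interval -0.84 to 0.29). miR-28a-5p, with the same seed, stood at 460.0, 459 and 423 in WT, 593, 741 and 807 in Mbnl1KO and 463, 545 and 626 in Mbnl2KO. Its lowest Mbnl2KO library lay close to the highest of WT. The average change of miR-28a-5p was 0.48 ± 0.14 (adjusted p = 0.0162), and it was called in 5 of 9 fits that left out a library, with a highest adjusted p of 0.164 without WT replicate 3. These were the 2 calls among 6 tested members of the miR-28, miR-151 and miR-708 family, where 20.3% of all tested miRNAs were called, and its median was 0.36. The other members did not pass the test and lay on both sides of 0, with miR-708-3p at 0.96 ± 0.47 (adjusted p = 0.189), miR-28a-3p at 0.25 ± 0.15 (adjusted p = 0.273), miR-151-5p at -0.22 ± 0.10 (adjusted p = 0.153) and miR-151-3p at -0.31 ± 0.13 (adjusted p = 0.107).

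miR-182-5p belongs to the cluster of miR-183, miR-96 and miR-182, best known from sensory cells, and FoxO transcription factors are among its targets. The libraries held 53.2, 57.4 and 58.9 in WT, 97.6, 165 and 102 in Mbnl1KO and 114, 211 and 99.6 in Mbnl2KO normalized counts. Replicate 2 was the highest of each knockout. The average rose by 1.22 ± 0.26 (adjusted p = 0.00173), with 1.1 ± 0.28 in Mbnl1KO and 1.33 ± 0.28 in Mbnl2KO. Its cluster neighbour miR-183-5p was at 33.7, 31.1 and 37.6 in WT, 37.96, 43.2 and 28.8 in Mbnl1KO and 58.5, 111 and 49.8 in Mbnl2KO. That change, 0.61 ± 0.27 (adjusted p = 0.133), did not pass the test, and the Mbnl1KO libraries overlapped WT. miR-96 was not among the tested miRNAs.

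miR-148a-3p, which is known to promote myoblast differentiation, was the most abundant of the 11 increases after miR-10b-5p. It was measured at 3061, 2880.1 and 2584 in WT, 3908, 4115 and 3856 in Mbnl1KO and 4772, 5751 and 4070.1 in Mbnl2KO. Replicate 3 of Mbnl2KO was below the highest Mbnl1KO library, and the other Mbnl2KO libraries were above all of Mbnl1KO. It rose by 0.63 ± 0.12 (adjusted p = 0.00063) and stayed called whichever library was left out. All 6 tested members of the family of miR-148 and miR-152 had a positive log2 fold change, with a median of 0.32 against 0.01 over all tested miRNAs, but miR-148a-3p alone was called (1 of 6, against 20.3% of all). miR-148b-3p had a change of 0.30 ± 0.13 (adjusted p = 0.0971).

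miR-10b-5p, encoded among the Hoxd genes, stood at 12177, 13182 and 15747 in WT, 15849, 16934 and 16368 in Mbnl1KO and 21536, 19927 and 18323 in Mbnl2KO. The lowest Mbnl1KO library was barely above the highest WT library, and the Mbnl2KO libraries were the highest. The change of 0.40 ± 0.11 (adjusted p = 0.0114) was not called without WT replicate 1 or without WT replicate 2 (highest adjusted p = 0.118), although it stayed between 0.32 and 0.42 with any library left out. miR-10a-5p, which has a near-identical sequence and with which reads could be shared, stood at 0.17 ± 0.10 (adjusted p = 0.282).

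The X-linked cluster of miR-322, miR-503, miR-351 and miR-450, which is known for cell cycle exit of myoblasts, had 3 of 10 tested members called, all higher, where 12.9% of all tested miRNAs were. miR-351-5p was at 284, 376 and 316 in WT, 487, 382 and 543 in Mbnl1KO and 490.4, 465 and 396 in Mbnl2KO. WT replicate 2 was close to Mbnl1KO replicate 2. It rose by 0.50 ± 0.15 (adjusted p = 0.0168) but was not called without WT replicate 1 or without WT replicate 3, the highest adjusted p being 0.128. miR-503-3p, the minor arm of its hairpin, was low, at 12.3, 7.78 and 12.5 in WT, 17.8, 14.8 and 16.6 in Mbnl1KO and 28.7, 25.6 and 22.98 in Mbnl2KO. Its rise of 0.93 ± 0.32 (adjusted p = 0.0425) was called in 1 of 9 fits that left out a library, with adjusted p-values of up to 0.247 (without WT replicate 2). miR-322-5p rose by 0.47 ± 0.13 (adjusted p = 0.0123) on average, yet differed between the knockouts, at 0.76 ± 0.15 in Mbnl1KO and 0.19 ± 0.15 in Mbnl2KO. It was not called without WT replicate 1 or without WT replicate 2 (highest adjusted p = 0.104). The median over the cluster was 0.32, from 0.51 in Mbnl1KO and 0.15 in Mbnl2KO.

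miR-140-5p, best known from cartilage, stood at 294, 303 and 314 in WT, 375, 691 and 493 in Mbnl1KO and 328, 587 and 365 in Mbnl2KO. Replicate 2 was again the highest of each knockout, and the lowest Mbnl2KO library was close to WT. The rise of 0.63 ± 0.20 (adjusted p = 0.0273) was called in 5 of 9 fits with a library left out, the highest adjusted p being 0.128 without WT replicate 3. miR-5121 was at 1021, 969 and 740.5 in WT, 1337, 1640.1 and 1553 in Mbnl1KO and 1037, 1334 and 1065 in Mbnl2KO. Its change was 0.53 ± 0.13 (adjusted p = 0.00685), and it was not called without WT replicate 2 or without WT replicate 3, where it stood at 0.31 (adjusted p = 0.183). Because miR-5121 overlaps an exon of Rpl13a, reads of that mRNA cannot be told apart from the miRNA. The precursors of miR-5113 and miR-1981-5p, described below, likewise overlap exons of Tnrc6b and Mtarc2, so the same limit may apply to them.

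Among the 9 decreases, the largest was that of miR-365-2-5p, the minor arm of a miR-365 hairpin. Its counts were 69.5, 55.5 and 125 in WT, 34.1, 34.8 and 26.2 in Mbnl1KO and 27.7, 48.4 and 42.1 in Mbnl2KO. WT replicate 3 was far above the other WT libraries. The change was -1.22 ± 0.25 (adjusted p = 0.00163), and without WT replicate 3 it was -0.92, still called. It was the only call among 5 tested members of the clusters of miR-193 and miR-365, a share near the 20.3% of all tested miRNAs, and their median was -0.40. miR-193b-5p stood at -0.41 ± 0.35 (adjusted p = 0.447).

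miR-100-5p, a regulator of the mTOR pathway, was the most abundant of the 9 decreases, at 6707, 7484 and 6941 in WT, 4897, 3570.2 and 5072 in Mbnl1KO and 4013, 5666 and 5199 in Mbnl2KO. All knockout libraries were below the lowest WT library by more than the range of the WT libraries. The change was -0.57 ± 0.12 (adjusted p = 0.00183), with -0.64 ± 0.15 in Mbnl1KO and -0.51 ± 0.15 in Mbnl2KO. The other arm, miR-100-3p, was near the filter, at 20.4, 17.5 and 16.3 in WT, 10.8, 5.27 and 16.6 in Mbnl1KO and 3.08, 3.80 and 2.55 in Mbnl2KO. Its decrease of -1.58 ± 0.39 (adjusted p = 0.00541) was steeper in Mbnl2KO, and 3 of the 9 fits with a library left out did not test it. The near-identical miR-99a-5p, with which reads could be shared, stood at -0.09 ± 0.11 (adjusted p = 0.574). In the family of miR-99 and miR-100, 2 of 5 tested members were lower, where 7.42% of all tested miRNAs were, and these 2 are the arms of a single hairpin. The family median was -0.49.

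miR-101b-3p, of a family known to target Ezh2, was found at 2778, 2513 and 2922 in WT, 2183, 2116 and 1865 in Mbnl1KO and 1698, 1647 and 1965 in Mbnl2KO. The Mbnl2KO libraries were on the whole the lowest. Its change was -0.52 ± 0.11 (adjusted p = 0.00166), with -0.41 ± 0.13 in Mbnl1KO and -0.63 ± 0.13 in Mbnl2KO. With library totals the adjusted p was 0.0725. The related miR-101a-3p, with a near-identical sequence, stood at -0.21 ± 0.12 (adjusted p = 0.247).

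The remaining decreases of the 20 were of lower abundance or smaller size. miR-1955-5p was at 20.4, 27.2 and 23.8 in WT, 10.1, 8.43 and 6.11 in Mbnl1KO and 13.3, 18.99 and 12.8 in Mbnl2KO, a change of -1.08 ± 0.30 (adjusted p = 0.0135), and was not called without WT replicate 2 (adjusted p = 0.072). miR-5113 was at 56.2, 64.2 and 70.2 in WT, 44.9, 43.2 and 41.9 in Mbnl1KO and 29.8, 33.2 and 39.6 in Mbnl2KO, a change of -0.72 ± 0.20 (adjusted p = 0.0144). Here the Mbnl2KO libraries were the lowest, whereas miR-1955-5p was lowest in Mbnl1KO. miR-1981-5p stood at 140.0, 195 and 182 in WT, 108, 91.7 and 99.6 in Mbnl1KO and 117, 115 and 126 in Mbnl2KO, a change of -0.66 ± 0.16 (adjusted p = 0.00541). The other arm, miR-1981-3p, fell by 0.65 on the log2 scale (adjusted p = 0.0472) and was called in 5 of 9 fits with a library left out (highest adjusted p = 0.2, without WT replicate 2). let-7d-3p, the minor arm of let-7d, was at 3399.7, 2947 and 2705 in WT, 2519, 1903 and 2294 in Mbnl1KO and 2344, 2361 and 2293 in Mbnl2KO, a change of -0.40 ± 0.11 (adjusted p = 0.0144). It was not called without WT replicate 1 (adjusted p = 0.136). miR-29b-1-5p, the minor arm of an antifibrotic miR-29, was at 74.6, 69.1 and 95.2 in WT, 48.8, 66.4 and 51.5 in Mbnl1KO and 56.4, 36.1 and 56.2 in Mbnl2KO, and its change of -0.60 ± 0.21 (adjusted p = 0.0494) was called in 3 of 9 fits that left out a library, with an adjusted p of up to 0.137 without WT replicate 3. With library totals, the falling miRNAs still called were miR-365-2-5p, miR-100-5p, miR-100-3p, miR-378a-3p, miR-146b-5p and miR-1843a-3p.

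**Figure D2:**
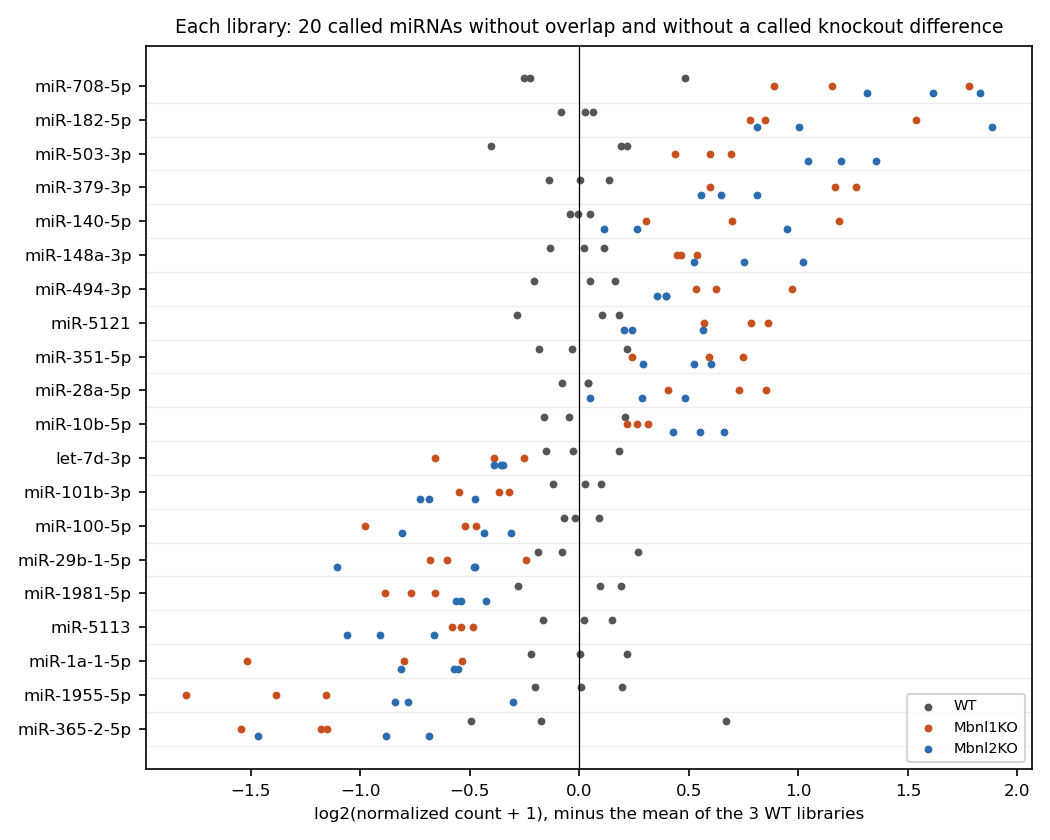
Log2(normalized count + 1) of each library minus the mean of the 3 WT libraries (horizontal axis) for the 20 miRNAs in which all 6 knockout libraries lay beyond all 3 WT libraries and no knockout difference was called, ordered by their average change. Each point is a library, coloured by group. The knockout points of miR-708-5p and miR-182-5p lie far from WT, while those of miR-10b-5p and miR-28a-5p begin at the edge of the WT range.

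Of 20 muscle-specific miRNAs in the list, 7 were tested and 10 were listed at 0 in every library, among them miR-486a-5p and miR-486b-5p. Since miRNAs known to be abundant in muscle are among those listed at 0, a listed 0 here does not show absence. A single member rose and a single member fell, against 20.3% called of all tested miRNAs, and the median change was -0.03. miR-206-3p was at 4120.4, 3668 and 3655 in WT, 15821, 16527 and 13443 in Mbnl1KO and 8610.5, 5768 and 6908 in Mbnl2KO. The 3 groups did not overlap, with Mbnl2KO between WT and Mbnl1KO. The change was 2.0 ± 0.15 in Mbnl1KO and 0.90 ± 0.14 in Mbnl2KO, and these differed by 1.11 (95% interval 0.81 to 1.4) (adjusted p = 5.20e-06). miR-133b-3p, which shares its locus, was at 52.1, 68.1 and 85.2 in WT, 132, 117 and 100.4 in Mbnl1KO and 63.6, 64.6 and 54.9 in Mbnl2KO. Its average change of 0.31 ± 0.20 (adjusted p = 0.293) did not pass the test, and the Mbnl1KO libraries stood above all others, with a knockout difference of 0.93 (95% interval 0.46 to 1.4) (adjusted p = 0.00419).

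miR-1a-1-5p, the minor arm of a miR-1 precursor, stood at 129, 149.8 and 110.3 in WT, 88.3, 44.3 and 73.4 in Mbnl1KO and 86.2, 87.3 and 72.8 in Mbnl2KO. All knockout libraries were below WT, and the change was -0.78 ± 0.20 (adjusted p = 0.00712). With library totals the adjusted p was 0.0568. miR-1a-3p itself, the most abundant miRNA of these libraries, stood at -0.15 ± 0.12 (adjusted p = 0.419). miR-133a-3p stood at -0.03 ± 0.11 (adjusted p = 0.908), a sign that flipped with library totals, and miR-133a-5p at -0.15 ± 0.10 (adjusted p = 0.32). miR-499-5p, which is encoded in a slow myosin gene, ranged from 3.80 to 101.2 over the libraries with no order by group, and its change of 0.18 ± 0.97 carried the largest error of these members.

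The Dlk1-Dio3 region (chr12:109452485-110281097 on GRCm38, from the start of Dlk1 to the end of Dio3) is an imprinted domain whose miRNAs are expressed from the maternal chromosome. Of 43 tested miRNAs in this region, 21 were higher and 0 were lower in the knockout average with edgeR, and 20 were higher and 0 lower with DESeq2. At an unadjusted p under 0.05, 28 were higher and 0 lower. The 21 called with edgeR make up 52.5% of the rising miRNAs, where the region holds 13.9% of the tested ones. The median change was 0.84, but the average joined unequal parts, with a median of 1.29 in Mbnl1KO and 0.26 in Mbnl2KO. The summed normalized count of the region was 4484 to 4648 (WT), 11551 to 13921 (Mbnl1KO) and 4664 to 6170.2 (Mbnl2KO). The Mbnl1KO libraries stood above all others, and the lowest Mbnl2KO library was just above the highest of WT. A knockout difference was called for 26.8% of all tested miRNAs and for 29 of the 43 in the region. Of the 21 called in the average, 19 also differed between the knockouts.

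The exceptions were miR-494-3p and miR-379-3p. miR-494-3p was at 148, 161 and 124 in WT, 208, 221 and 282 in Mbnl1KO and 184, 189 and 189 in Mbnl2KO, with a change of 0.71 ± 0.18 in Mbnl1KO and 0.37 ± 0.18 in Mbnl2KO. The average of 0.54 ± 0.16 (adjusted p = 0.0162) was called in 6 of 9 fits with a library left out. Leaving out any of the WT replicates ended the call, and the value was 0.35 without WT replicate 3 (adjusted p = 0.233). miR-379-3p, the minor arm of its hairpin, was at 12.3, 13.6 and 15.04 in WT, 31.8, 21.1 and 34.1 in Mbnl1KO and 24.6, 21.8 and 20.4 in Mbnl2KO. Its rise of 0.90 ± 0.30 (adjusted p = 0.0345) was called in 3 of 9 such fits, with an adjusted p of up to 0.129 without WT replicate 1, and the 5p arm stood at 0.17 ± 0.42 (adjusted p = 0.817).

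In 4 further called miRNAs of the region every knockout library lay above WT although the knockouts differed. miR-487b-3p was at 142, 149.8 and 85.2 in WT, 975, 822 and 1091 in Mbnl1KO and 164, 193 and 156 in Mbnl2KO. Against WT it stood at 2.93 ± 0.20 in Mbnl1KO and 0.44 ± 0.20 in Mbnl2KO. miR-127-3p, whose gene lies opposite the retrotransposon-like gene Rtl1, was at 124, 151 and 134 in WT, 318, 402 and 471 in Mbnl1KO and 156, 265 and 174 in Mbnl2KO. miR-409-3p was at 80.8, 59.4 and 82.7 in WT, 236, 264 and 246 in Mbnl1KO and 89.3, 119.6 and 89.4 in Mbnl2KO. miR-485-3p was at 41.9, 31.1 and 23.8 in WT, 89.1, 72.7 and 118 in Mbnl1KO and 45.1, 62.7 and 48.5 in Mbnl2KO. In each of these the Mbnl2KO libraries lay between those of WT and those of Mbnl1KO, with replicate 2 the highest of Mbnl2KO. For miR-127-3p and miR-485-3p that replicate was nearer to the lowest Mbnl1KO library than to the highest WT library. The average changes were 1.68 ± 0.18, 1.04 ± 0.19, 1.09 ± 0.18 and 1.1 ± 0.25, in this order, and all 4 stayed called whichever library was left out.

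In further members at least 1 Mbnl2KO library was not above the highest WT library. The largest average of all, 2.54 ± 0.39 (adjusted p = 0.000176), was that of miR-370-3p, at 9.20, 14.6 and 2.51 in WT, 108, 132 and 178 in Mbnl1KO and 18.5, 30.4 and 11.5 in Mbnl2KO. Its WT mean of 8.77 was below 10, and Mbnl2KO replicate 3 lay within WT. Against WT it stood at 3.91 ± 0.39 in Mbnl1KO and 1.16 ± 0.47 in Mbnl2KO (adjusted p = 0.184 for Mbnl2KO). miR-381-3p was at 106, 80.8 and 86.5 in WT, 710.4, 1049.9 and 1150.1 in Mbnl1KO and 128, 235 and 81.7 in Mbnl2KO, where 1 Mbnl2KO library lay within WT, and stood at 3.41 ± 0.33 in Mbnl1KO and 0.72 ± 0.33 in Mbnl2KO (adjusted p = 0.286 for Mbnl2KO). miR-495-3p was at 211, 203 and 224 in WT, 704, 768 and 741 in Mbnl1KO and 172, 229 and 219.6 in Mbnl2KO, and miR-369-3p at 110.4, 140.1 and 128 in WT, 456, 479.6 and 431 in Mbnl1KO and 144, 85.4 and 109.8 in Mbnl2KO. In both, Mbnl2KO overlapped WT, and the log2 fold change there was -0.04 ± 0.16 and -0.16 ± 0.20. miR-541-5p stood at 456, 414 and 515 in WT, 1806, 1895 and 1961 in Mbnl1KO and 507, 666 and 499 in Mbnl2KO, and miR-543-3p at 47.02, 50.6 and 68.9 in WT, 320.0, 287 and 348 in Mbnl1KO and 57.5, 91.1 and 72.8 in Mbnl2KO. Members at or below 0 in the region were miR-1247-5p (-0.45 ± 0.22), miR-323-3p (-0.38 ± 0.34), miR-380-5p (-0.16 ± 0.38) and miR-329-3p (-0.09 ± 0.19), of which none was called and the last was above 0 with library totals.

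The paired clusters of miR-23, miR-27 and miR-24, whose miRNAs are known to repress ubiquitin ligases of muscle atrophy and myostatin, had 4 of 8 tested members called, all higher, where 12.9% of all tested miRNAs were, with a median of 0.54. miR-24-3p was listed at 0 throughout. miR-23b-3p was at 12282, 13113 and 11984 in WT, 27211, 25393 and 27477 in Mbnl1KO and 13657, 13846 and 14397 in Mbnl2KO. Every Mbnl2KO library was above every WT library, but by far less than the Mbnl1KO libraries. The change was 1.1 ± 0.11 in Mbnl1KO and 0.16 ± 0.11 in Mbnl2KO. miR-23a-3p, from the other cluster, was at 13129, 14785 and 15365 in WT, 29969, 32079 and 27318 in Mbnl1KO and 17061, 16323 and 15099 in Mbnl2KO, and here Mbnl2KO overlapped WT. miR-27b-3p stood at 0.79 ± 0.12 in Mbnl1KO and 0.03 ± 0.12 in Mbnl2KO. The average of miR-27b-3p was not called without WT replicate 2 or without WT replicate 3 (highest adjusted p = 0.175), and that of its other arm, miR-27b-5p, was called in 5 of 9 such fits (highest adjusted p = 0.171, without WT replicate 1). The median of the clusters was 1.05 in Mbnl1KO and 0.03 in Mbnl2KO. miR-27a-3p, near-identical to miR-27b-3p, was low and stood at 0.67 ± 0.42 (adjusted p = 0.284), and miR-23a-5p at 0.77 ± 0.32 (adjusted p = 0.103).

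Within introns of Clcn5, the cluster of miR-532, miR-362 and miR-501 had 2 of 5 tested members lower and none higher, where 7.42% of all tested miRNAs were lower, with a median of -0.36. miR-501-3p was at 272, 273 and 317 in WT, 154, 116 and 178 in Mbnl1KO and 251, 240.2 and 229.8 in Mbnl2KO. All knockout libraries were below WT, and the Mbnl1KO libraries were the lowest, at -0.94 ± 0.18 against -0.26 ± 0.17 in Mbnl2KO. miR-362-3p was at 71.6, 100.2 and 113 in WT, 60.4, 51.6 and 46.3 in Mbnl1KO and 70.8, 80.7 and 71.5 in Mbnl2KO and Mbnl2KO overlapped WT. Its change of -0.59 ± 0.20 (adjusted p = 0.0353) was called in 4 of 9 fits that left out a library (highest adjusted p = 0.121, without WT replicate 3).

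The abundant miR-378a-3p, a metabolic regulator hosted by the gene of the coactivator PGC-1beta, was low in Mbnl1KO and overlapped WT in Mbnl2KO. It was at 25727, 29925 and 34037 in WT, 13452, 9857 and 14887 in Mbnl1KO and 28549, 29792 and 27532 in Mbnl2KO. The average of -0.65 ± 0.12 (adjusted p = 0.000623) joined -1.23 ± 0.15 in Mbnl1KO and -0.06 ± 0.14 in Mbnl2KO. miR-1843a-3p was at 162, 180.0 and 172 in WT, 78.2, 67.5 and 75.1 in Mbnl1KO and 146, 148 and 125 in Mbnl2KO, so that both knockouts lay below WT, Mbnl1KO by more. The let-7 guide strands and the miR-30 family held no call, let-7d-3p above being no guide strand. Against 20.3% called of all tested miRNAs, none of 9 tested let-7 guide strands was called by edgeR or DESeq2, and 0 had an unadjusted p under 0.05, with changes from -0.18 to 0.04. let-7i-5p was at -0.18 ± 0.11 and miR-98-5p at -0.14 ± 0.13. Likewise 0 of 9 miR-30 members were called by either tool, against the same 20.3%, and 0 had an unadjusted p under 0.05, with changes from -0.17 to 0.19. miR-30a-3p was at -0.17 ± 0.10 and miR-30b-3p at 0.19 ± 0.34.

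**Figure D3:**
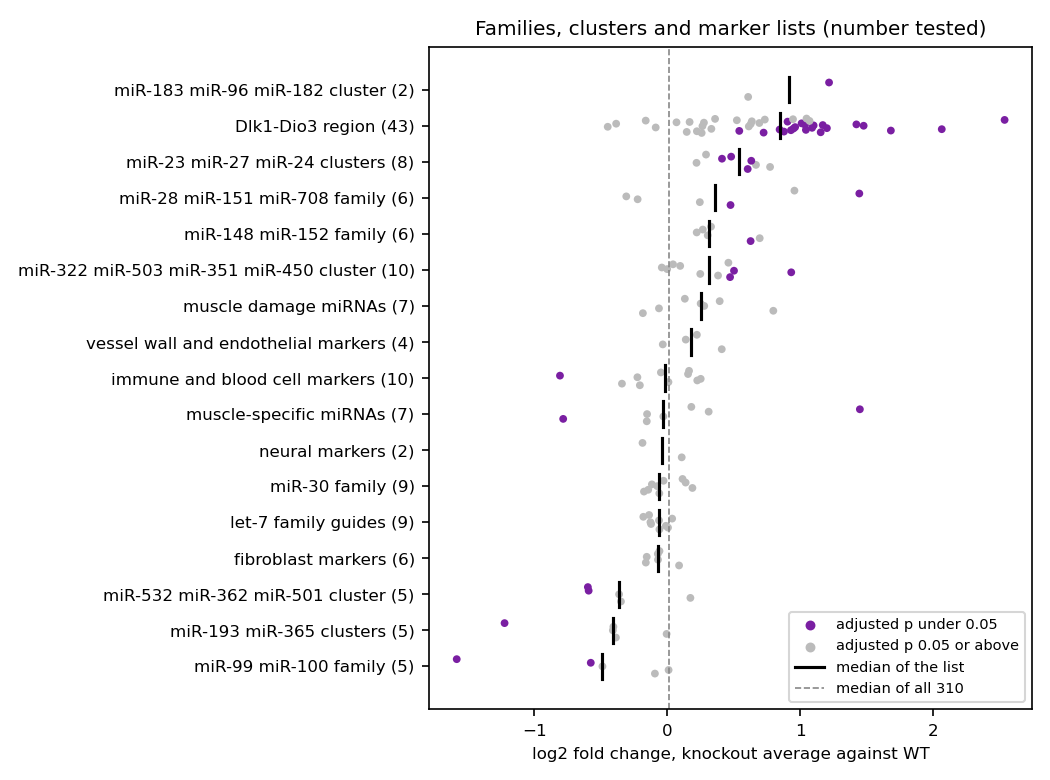
Log2 fold change of the knockout average against WT (horizontal axis) for the tested members of families, clusters and marker lists (rows, number tested in parentheses), with called members in purple, black bars at the list medians and a dashed line at the median of all 310 tested miRNAs. The Dlk1-Dio3 region holds 21 called members, all to the right of 0, while the let-7 and miR-30 families lie close to 0.

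The knockouts were compared with each other in the same fit, in a contrast of their fitted levels that leaves out the WT level, although the WT libraries enter its error estimate, scaling and filter. Of the 63 called miRNAs, 37 (58.7%) differed between Mbnl1KO and Mbnl2KO, where 26.8% of all tested miRNAs did. In 34 of the 37 Mbnl1KO lay further from WT. The 3 with Mbnl2KO further from WT were miR-100-3p, miR-335-3p and miR-615-3p. miR-335-3p, hosted by the imprinted gene Mest, was at 56.2, 52.5 and 47.6 in WT, 66.6, 67.5 and 50.7 in Mbnl1KO and 126, 139.6 and 68.9 in Mbnl2KO. It was higher in Mbnl2KO and nearer to WT in Mbnl1KO, and its average was called in 2 of 9 fits that left out a library (highest adjusted p = 0.194, without WT replicate 3). miR-615-3p, from an intron of Hoxc5, was at 443, 652 and 459.8 in WT, 475, 337 and 452 in Mbnl1KO and 248, 297 and 329 in Mbnl2KO. Its Mbnl1KO libraries overlapped WT, and it was not called without WT replicate 2 (adjusted p = 0.0964).

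The 5 calls with the smallest adjusted p for the knockout difference were all from the Dlk1-Dio3 region. They were miR-487b-3p with a difference of 2.49 (95% interval 2.09 to 2.89), miR-495-3p with 1.83 (95% interval 1.51 to 2.16), miR-541-5p with 1.76 (95% interval 1.45 to 2.07), miR-369-3p with 2.01 (95% interval 1.62 to 2.41) and miR-543-3p with 2.1 (95% interval 1.67 to 2.53). In all of them Mbnl1KO was the higher group. miR-107-3p, encoded in Pank1, rose by 0.80 ± 0.21 (adjusted p = 0.0111) on average, from 1.62 ± 0.23 in Mbnl1KO and -0.03 ± 0.25 in Mbnl2KO. Its near-identical relative miR-103-3p stood at -0.13 ± 0.14 (adjusted p = 0.547), and the average of miR-107-3p was not called without WT replicate 2 (adjusted p = 0.0904).

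**Figure D4:**
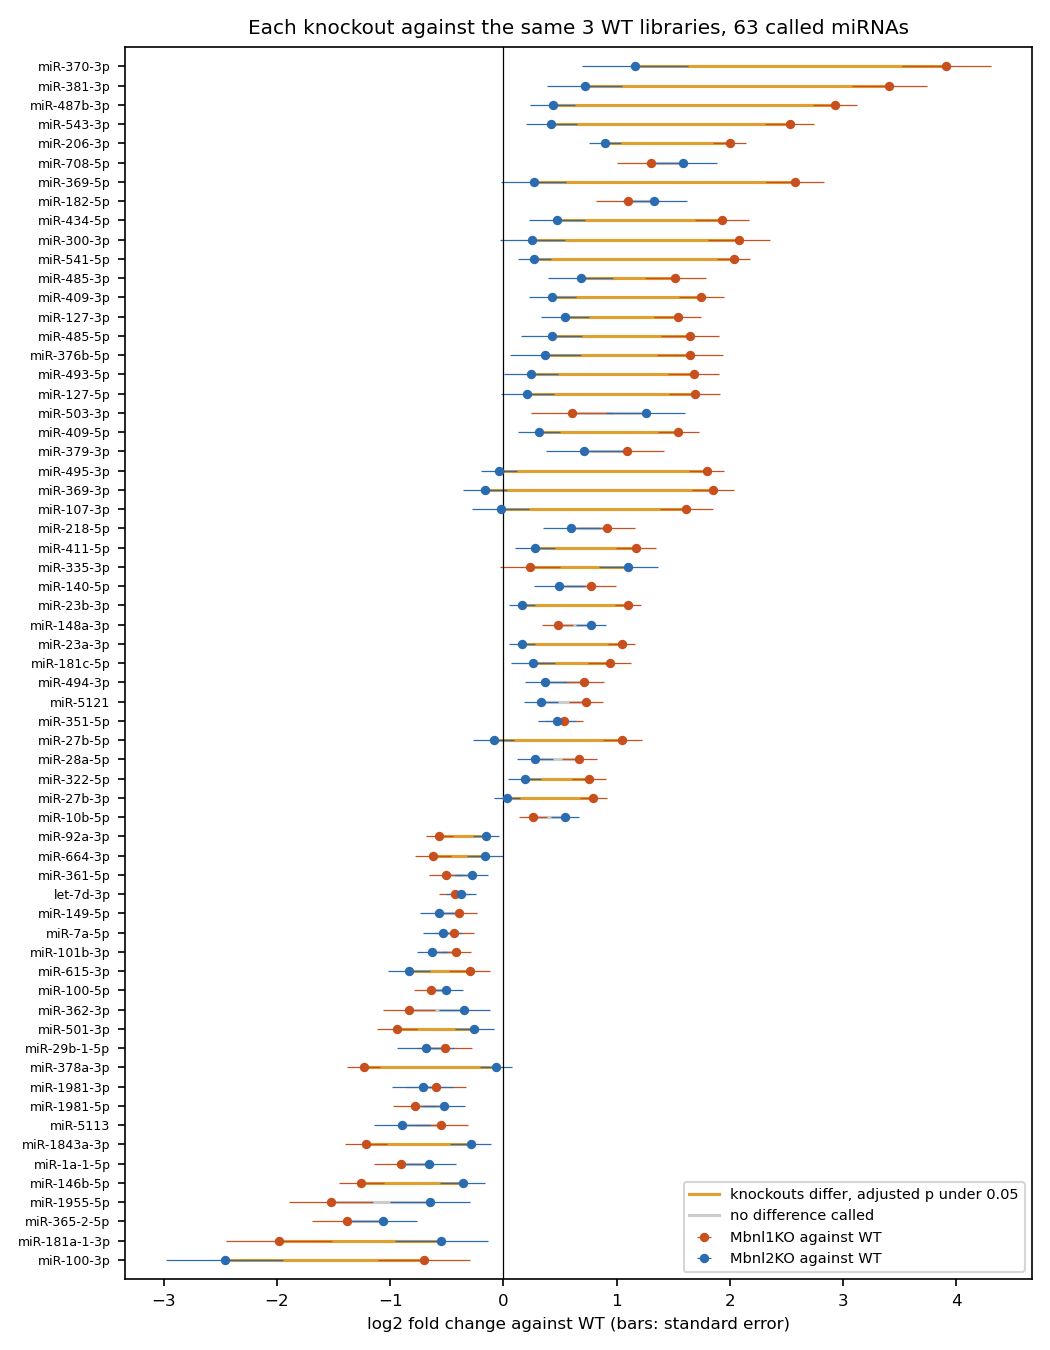
Log2 fold change of each knockout against the same 3 WT libraries (horizontal axis, bars are standard errors) for the 63 miRNAs called in the knockout average, ordered by the average. Lines join the knockouts, in orange where their difference was called (37 miRNAs) and in grey where it was not (26 miRNAs), and both comparisons share the WT libraries. miR-708-5p and miR-182-5p have both points on one side and close together, whereas those of miR-370-3p and miR-381-3p lie far apart.

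Both arms were tested for 76 hairpins. In 7 hairpins both arms were called, always in the same direction, higher for miR-127, miR-27b, miR-369, miR-409 and miR-485 and lower for miR-100 and miR-1981. In 19 hairpins a single arm was called. For miR-378a the 3p arm fell while the 5p arm stood at 0.18 ± 0.11 (adjusted p = 0.284). For miR-434 the 5p arm rose by 1.2 ± 0.22 (adjusted p = 0.000623) and the 3p arm stood at 0.26 ± 0.13 (adjusted p = 0.189). For miR-708 the 3p arm, at 4.09, 13.6 and 12.5 in WT, 24.02, 9.49 and 4.37 in Mbnl1KO and 34.9, 33.2 and 19.2 in Mbnl2KO, had a change of 0.96 ± 0.47 (adjusted p = 0.189), and for miR-148a the 5p arm had 0.70 ± 0.37 (adjusted p = 0.213). Arms of a hairpin come from the same transcript and are not independent.

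The 58 called miRNAs with a sequence had 57 distinct seeds, since among them miR-708-5p and miR-28a-5p alone shared one. The other 5 called miRNAs, miR-487b-3p, miR-23b-3p, miR-378a-3p, miR-485-5p and miR-140-5p, did not enter this comparison. Of the rising miRNAs 50% were 3p arms, of the falling ones 52.2%, and of all tested ones 44.5%. A uridine in the first position was found in 41.7% of the rising and 36.4% of the falling miRNAs, against 43.1% of the tested. The median GC content of the mature sequence was 45.5% among the rising, 50% among the falling and 47.6% among the tested miRNAs. These are descriptions of the lists, and no test was made of them.

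Markers of other cells in the muscle were examined beside these changes. In bulk tissue, fewer cells of a type and less RNA per cell cannot be told apart. Of 14 immune and blood cell miRNAs, 10 were tested and miR-142a-3p was listed at 0. Their summed normalized count was 4124 to 5302 (WT), 3779 to 4433 (Mbnl1KO) and 4283 to 4519 (Mbnl2KO). miR-146b-5p, a feedback inhibitor of NF-kappaB signalling, was lower, at 1073, 832 and 1759 in WT, 507, 491 and 536 in Mbnl1KO and 917, 1041 and 894 in Mbnl2KO. It was low in Mbnl1KO, overlapped WT in Mbnl2KO, and WT replicate 3 was its highest library. It was the only call among the 10, against 20.3% of all tested miRNAs. The log2 fold changes of the 10 ran from -0.81 to 0.25 (median -0.02) and 5 were above 0. The myeloid miR-223-3p stood at -0.34 ± 0.15 (adjusted p = 0.133), which joined -0.80 ± 0.18 in Mbnl1KO and 0.12 ± 0.18 in Mbnl2KO. Of the vessel wall list, 4 of 6 were tested, miR-126a-3p and miR-126a-5p were listed at 0, and the sum was 29277 to 31881 (WT), 28370.4 to 43611 (Mbnl1KO) and 38458 to 43165 (Mbnl2KO). miR-143-3p, of smooth muscle, was at 23831, 21075 and 22043 in WT, 18939, 33479.5 and 32353 in Mbnl1KO and 29269.6, 30163 and 33917 in Mbnl2KO. The Mbnl2KO libraries were above WT, whereas Mbnl1KO replicate 1 was below every WT library. The average of 0.41 ± 0.14 (adjusted p = 0.0519) did not pass the test, and log2 fold changes of the 4 members ran from -0.03 to 0.41 (median 0.18). miR-145a-3p stood at 0.22 ± 0.12 (adjusted p = 0.213).

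All 6 fibroblast miRNAs were tested with 0 calls by either tool, against 20.3% of all tested miRNAs by edgeR, and 0 unadjusted p-values under 0.05, and their sum was 9617 to 10067 (WT), 7688 to 8935 (Mbnl1KO) and 8799 to 11364 (Mbnl2KO). Their log2 fold changes ran from -0.16 to 0.09 (median -0.07). miR-199a-3p stood at -0.16 ± 0.11 (adjusted p = 0.34) and miR-199b-3p at -0.15 ± 0.12 (adjusted p = 0.396). Of the neural list, miR-9-5p was listed at 0, and miR-124-3p was too low to be tested. miR-128-3p, which muscle also expresses, stood at 0.11 ± 0.12 (adjusted p = 0.55) and miR-138-5p at -0.19 ± 0.42 (adjusted p = 0.797). None of 8 epithelial miRNAs was tested, and 2 of them were listed at 0 in every library, which does not show absence. The sum of the list was 15.6 to 33.8 (WT), 16.9 to 27.1 (Mbnl1KO) and 16.4 to 17.1 (Mbnl2KO). Of 7 tested miRNAs linked to muscle damage 0 were called by edgeR or DESeq2, against the same 20.3%, and 1 had an unadjusted p under 0.05, and their sum was 52391 to 67526 (WT), 58463 to 68174 (Mbnl1KO) and 44872 to 53689.9 (Mbnl2KO). The log2 fold changes of the 7 ran from -0.18 to 0.80 (median 0.25). miR-31-5p was at 16.4, 14.6 and 26.3 in WT, 37.96, 22.1 and 34.1 in Mbnl1KO and 31.8, 34.2 and 35.7 in Mbnl2KO, a change of 0.80 ± 0.29 (adjusted p = 0.0526), and miR-221-5p stood at 0.39 ± 0.25 (adjusted p = 0.29). The part of these cell types in the other results was not tested.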

How the data were processed

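Small RNA of quadriceps was sequenced from 3 WT, 3 Mbnl1KO and 3 Mbnl2KO mice, grouped by their labels. The authors deposited raw counts of reads per mature miRNA, with no normalization. Per their methods, adapters were clipped, identical reads were collapsed, and reads were aligned in sense orientation to miRBase precursors with no mismatch. Those within each annotated mature sequence, give or take a few bases, were then summed. Whether this counting made the deposited table is not stated in it, and a second counting is described for other samples of the study. The submitters' processing notes name DESeq2. Perfect matching does not separate reads that fit several precursors.

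The counts were fitted with edgeR 4.0.16 (quasi-likelihood, robust, TMM) in R 4.3.3, with 3 groups and no covariate, restricted to miRNAs above a mean of 10 normalized counts. Contrasts were the mean of both knockouts against WT, each knockout against WT, and Mbnl1KO against Mbnl2KO. P-values were two-sided and adjusted by Benjamini-Hochberg over 310 miRNAs, and those under 0.05 were called. The SE is the fold change divided by the square root of the F statistic. A replicate's normalized count is its count divided by its effective library size and multiplied by the mean effective size. DESeq2 1.42.0 was an alternative, with other scalings, filters, groupings, a replicate block and each of 9 libraries left out.

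Named miRNAs were the 10 rising and the 10 falling calls without overlap that changed most, the 5 most abundant calls, the 5 calls with the clearest knockout difference, the tested muscle-specific miRNAs and at least 2 members of each list described. Further miRNAs were named after their values were seen, where they belonged to the 20 calls without overlap or knockout difference, to a family, to a hairpin or to a near-identical pair. The miRNAs, lists and tests were chosen with earlier results of these data known. On simulated counts with 2-fold changes, summed over 5 data sets, edgeR recovered 85.9% of the changes made in both knockouts and 30.4% of those made in Mbnl1KO alone, and 4.91% of its calls were false. Python 3.11.15, pandas 2.3.3 and matplotlib 3.10.9 drew the figures.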

Additional observations from a re-analysis of the deposited data

Results flagged for a closer look

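Among the miRNAs named in the report, 37 had a called difference between the response to loss of Mbnl1 and the response to loss of Mbnl2 (adjusted p under 0.05 from edgeR's quasi-likelihood test of Mbnl1KO minus Mbnl2KO). All values are log2 differences, Mbnl1KO minus Mbnl2KO. In the Dlk1-Dio3 region the difference was 2.49 for miR-487b-3p, 0.84 for miR-485-3p, 1.32 for miR-409-3p, 1.76 for miR-541-5p, 1.00 for miR-127-3p, 1.83 for miR-495-3p, 2.01 for miR-369-3p, 2.1 for miR-543-3p, 2.75 for miR-370-3p, 2.69 for miR-381-3p, 1.45 for miR-434-5p, 1.21 for miR-380-5p and 1.22 for miR-485-5p. Mbnl1KO was higher in each of them. In the clusters of miR-23 and miR-27 it was 0.88 for miR-23a-3p, 0.93 for miR-23b-3p, 2.03 for miR-27a-3p, 0.76 for miR-27b-3p and 1.13 for miR-27b-5p. Among muscle-specific miRNAs it was 1.11 for miR-206-3p and 0.93 for miR-133b-3p. Mbnl1KO was lower than Mbnl2KO for other miRNAs, with -0.92 for miR-1843a-3p, -0.68 for miR-501-3p, -1.17 for miR-378a-3p, -1.01 for miR-183-5p, -0.37 for miR-30a-3p, -0.77 for miR-221-5p, -0.87 for miR-335-3p and -0.38 for miR-151-5p. The same held for some miRNAs of the immune and fibroblast lists, with -0.89 for miR-146b-5p, -0.93 for miR-223-3p, -0.40 for miR-199a-3p and -0.41 for miR-199b-3p. A difference was called for 4 of 10 tested immune miRNAs and 3 of 6 fibroblast miRNAs, against 26.8% of all tested miRNAs. These members do not stand for their whole lists. For miR-100-3p, which was lowest in Mbnl2KO, the difference was 1.76. Mbnl1KO was also the higher group for others, with 1.64 for miR-107-3p, 0.57 for miR-322-5p, 0.55 for miR-378a-5p and 0.54 for miR-615-3p. Groups of 3 libraries are too small for the check on single outlying samples, and none was run.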

How the results depend on the processing

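The direction and the calls were recomputed with other scalings, filters, tools, groupings, a stricter threshold and each library left out. With all 6 knockout libraries as 1 group, edgeR called 0 miRNAs (0 higher, 0 lower, 0 without overlap) and 65 had an unadjusted p under 0.05, while DESeq2 called 18. The difference between the knockouts then counts as spread within a group. With library totals, 50 were called, of which 6 were lower and 10 had no overlap. A threshold of 0.01 gave 36 calls, 26 higher and 10 lower, 17 of them without overlap. DESeq2's Wald test gave 67 calls, DESeq2's size factors 67, totals without miR-1a-3p 62, no filter 64 of 909 tested, and a mean above 100 gave 47 of 165. With a library left out there were 42 to 74 calls, 26 to 43 higher and 16 to 31 lower, with 21 to 39 free of overlap and 28 to 42 that differed between the knockouts. The fewest came without WT replicate 2 and the most without Mbnl2KO replicate 3. The calls of 34 of the 63 held in all 9 of these fits. The replicate block gave 57 calls. Replicate numbers are shared by the groups, but libraries with the same number did not deviate together (correlations of -0.15 to 0.13), so the numbers were not taken to pair them. With library totals the sign was reversed for miR-133a-3p (0.086), miR-99a-5p (0.023) and miR-329-3p (0.021). With a library left out the log2 fold change lay between -0.095 and 0.025 for miR-133a-3p, -0.78 and 0.57 for miR-499-5p, -0.032 and 0.32 for miR-30b-3p, -0.55 and 0.12 for miR-138-5p, -0.0454 and 0.17 for miR-128-3p, -0.404 and 0.0475 for miR-380-5p, -0.20 and 0.373 for miR-379-5p, -0.194 and -0.0542 for miR-99a-5p, and -0.208 and -0.0227 for miR-329-3p. Among these fits, the reversals came without Mbnl1KO replicate 2 (miR-133a-3p, -0.78 for miR-499-5p), Mbnl2KO replicate 1 (-0.27 for miR-499-5p), Mbnl2KO replicate 2 (-0.20 for miR-379-5p) or WT replicate 3 (-0.23 for miR-499-5p, -0.0163 for miR-379-5p, and miR-30b-3p, miR-138-5p, miR-128-3p and miR-380-5p). None of these was called, and the causes were not tested. At a mean count near 10 the SE is large, and absence of a call there does not show absence of a change.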

Other observations

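Some called miRNAs outside the comparisons above lay on the same side of WT in most libraries of both knockouts. miR-7a-5p, encoded in an intron of Hnrnpk and at a second locus, was at 610.2, 689 and 589 in WT, 455, 591 and 355 in Mbnl1KO and 440.2, 384 and 483 in Mbnl2KO, a change of -0.48 ± 0.15 (adjusted p = 0.0203) with edgeR. Mbnl1KO replicate 2 alone reached the WT range. miR-149-5p, from an intron of Gpc1, was at 4282, 5982 and 4561 in WT, 3819, 2926 and 4545 in Mbnl1KO and 2890.3, 3295 and 3789 in Mbnl2KO, a change of -0.48 ± 0.14 (adjusted p = 0.0163). Here Mbnl1KO replicate 3 lay within WT and the Mbnl2KO libraries were below it. miR-218-5p, which is encoded in introns of Slit2 and Slit3, rose by 0.76 ± 0.22 (adjusted p = 0.0162), from 33.7, 42.8 and 60.1 in WT to 85.2, 78.00 and 92.6 in Mbnl1KO and 59.5, 78.8 and 66.4 in Mbnl2KO. Mbnl2KO replicate 1 was just below the highest WT library. None of the 3 had a called difference between the knockouts, with 0.10 (95% interval -0.26 to 0.46), 0.18 (95% interval -0.16 to 0.52) and 0.32 (95% interval -0.17 to 0.81) in this order. miR-7a-5p and miR-218-5p were each called in 7 of 9 fits with a library left out, and miR-149-5p in 8 of 9. The highest adjusted p was 0.0904 for miR-7a-5p, 0.0904 for miR-149-5p and 0.123 for miR-218-5p. Taken singly against WT, miR-7a-5p and miR-149-5p passed the edgeR test in neither knockout, and miR-218-5p passed in Mbnl1KO alone. With library totals miR-7a-5p (adjusted p = 0.174) and miR-149-5p (adjusted p = 0.121) were not called. The other arm, miR-7a-1-3p, stood at -0.0004, and miR-7b-5p is near-identical to miR-7a-5p, so that reads could be shared.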
